A study of Cercocebus atys with 16 samples.

Results

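The genes described here encode the translation initiation and elongation factors, the proteins that start and drive protein synthesis on the ribosome. They were taken as every array probe whose gene name in the files starts with EIF or EEF and a digit; 2 genes with such names were left out by that rule. It selected 79 probes under 44 gene names. Probes named EIF6 fell at 2 places in the genome and are kept here as 2 genes, EIF6 and EIF3A, which gives 45 genes. All 45 had a probe well above background in at least 2 animals, as had 76 of the 79 probes. Of the 43603 distinct probes on the array, 22846 features were tested: the brightest probe of each gene symbol that passed this filter, and every passing probe with no symbol.

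The RNA came from double-negative T cells, which carry CD3 but neither CD4 nor CD8, of 4 sooty mangabeys (Cercocebus atys), a natural host of SIV, the simian immunodeficiency virus. The cells were enriched from blood to above 98% purity and either left unstimulated or stimulated for 4 h with antibodies to CD3 (3 mg/ml in the labels) and CD28 (1 mg/ml). All 4 animals, the controls of every comparison included, were infected with SIV; the animals labelled FNV and FKN had a normal CD4 status, those labelled FBR and FTV a low one, and no uninfected animal is among the samples. Each animal contributed 4 two-colour arrays, 2 that set stimulated against unstimulated RNA in opposite dyes and 2 self-self arrays. The probes were designed on the rhesus macaque, and the effect of sequence differences from the mangabey on binding was not tested.

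Initiation starts when eIF2, loaded with GTP and initiator tRNA, joins the small ribosomal subunit together with eIF1, eIF1A, eIF5 and the large scaffold eIF3. The cap-binding complex eIF4F, made of eIF4E, the scaffold eIF4G and the helicase eIF4A, brings the mRNA, and eIF5B then joins the large subunit, from which eIF6 must first leave. The exchange factor eIF2B recharges eIF2, stress kinases block that step, and eIF4E-binding proteins hold eIF4E back until mTOR signalling releases it. In elongation eEF1A delivers aminoacyl-tRNA and eEF2 moves the ribosome along the mRNA. Resting T cells make little protein, and translation rises strongly when they are activated.

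The stimulated response is the log2 ratio of stimulated over unstimulated RNA, averaged over the dye-exchanged arrays of an animal, and n is the 4 animals. FNV was scanned in an earlier batch than the other animals, and the share of spots well above background ran from 33.3% to 64.8% by channel on its 4 arrays, against 57% to 65% on the 12 later ones. The T cell markers CD3D, CD3E, CD3G, CD2 and CD5 were well above background in all 16 unstimulated channels. CD3D, CD3G and CD2 rose on stimulation, CD5 fell by 1.00 and CD3E (-0.20) did not pass. CD4, which these cells are described as lacking, was also well above background in all 16, at a mean unstimulated level of 9.36. The source of that signal was not tested. CD8A and CD8B were on the marker list, but no tested feature carried those names. Of 8 tested monocyte genes 4 fell on stimulation and 4 did not pass, their summed unstimulated level ranged from 12.44 to 16.71 (log2) between animals, and CD14 fell by 0.87. Of 5 tested B cell genes 2 fell, CD79B (-2.60) and MS4A1 (-1.15), and FCER2 rose by 0.36. Of 3 erythroid genes HBA2 fell by 0.23 (unstimulated level 13.70) and HBB (12.49) and ALAS2 did not pass; none of 3 NK genes passed, and their summed unstimulated level ran from 8.19 to 12.27. The part of these cells in the responses below was not tested, and in a bulk sample fewer cells of a type and less RNA per cell cannot be told apart.

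On stimulation 22 of the 45 factor genes rose and 9 fell at an adjusted p under 0.05 (limma's moderated test against 0, Benjamini-Hochberg adjustment over all 22846 features), and 14 did not pass. Over all tested features 19.0% rose and 21.0% fell, 40.0% in either direction. The share of factor genes that rose, 48.9%, was thus above the share of all features, and the share that fell, 20%, was near it. The median response of the members was 0.18 on the log2 scale, beside -0.01 over all features. By animal the median of the members was 0.21 in FNV, 0.28 in FKN, 0.21 in FBR and 0.27 in FTV. Of the 45 genes, 39 moved in the same direction in all 4 animals; the share of all features that did so was not counted, so this is a description only. The genes that changed at least 2-fold were EEF1E1, EIF4A1, EIF2S2 and EIF6, which rose, and EIF2C4, which fell; of all features 3.54% rose and 3.29% fell by that much. The count of 31 calls depended on the animals: it was 18 without FKN (14 rose, 4 fell), 23 without FBR, 26 without FTV and 31 without FNV. Centring each array on its median in place of loess left 10 calls (8 rose, 2 fell).

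**Figure D1:**
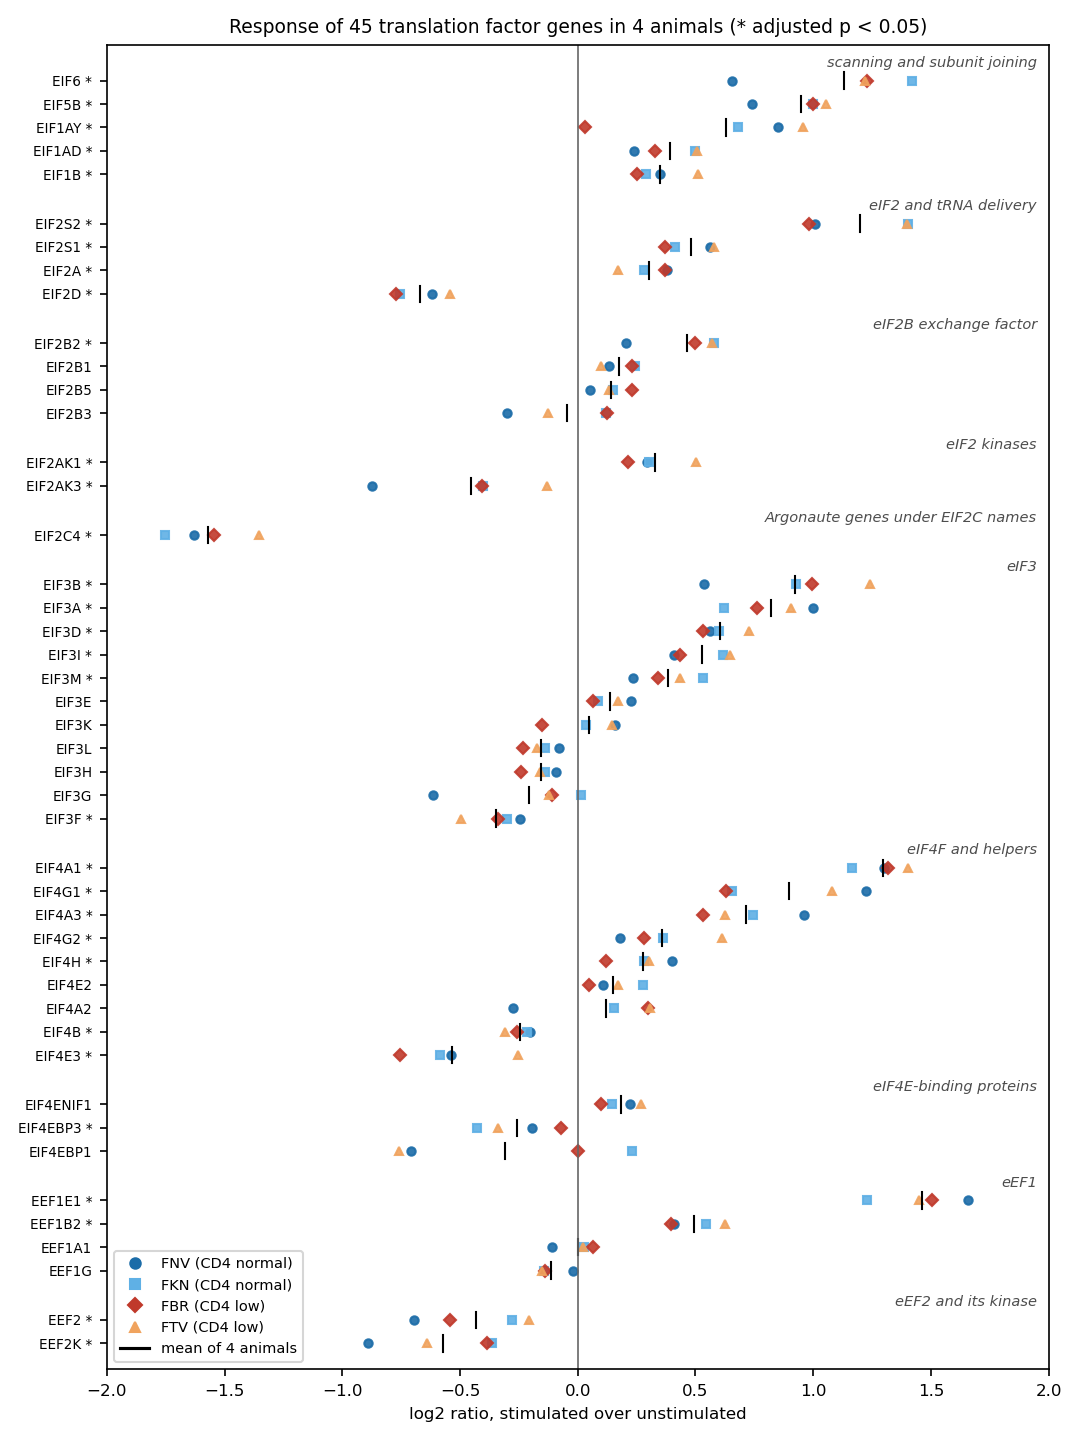
Log2 ratio of stimulated over unstimulated RNA (x axis) for each of the 45 factor genes (rows, grouped by complex), with 1 point per animal, a black bar at the mean of the 4 animals and an asterisk where the adjusted p was under 0.05. The genes grouped under scanning and joining all lie to the right of 0, the eIF3 subunits spread from -0.35 to 0.92, and EIF2C4 lies farthest to the left at -1.57.

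The cap-binding complex and its helpers moved apart by member. EIF4A1, the main eIF4A helicase, had log2 ratios of 1.30 in FNV, 1.16 in FKN, 1.32 in FBR and 1.40 in FTV. The 4 animals lay close together, and the mean was 1.30 ± 0.10 (SD, n = 4), a 2.45-fold rise with an adjusted p of 0.000556. Its level rose from 11.68 to 12.94 in FNV, from 12.39 to 13.61 in FKN, from 12.22 to 13.55 in FBR and from 11.85 to 13.34 in FTV (normalised log2 intensity), so the stimulated and unstimulated levels did not overlap. EIF4A2, the paralogous helicase, did not follow: its ratios were -0.28, 0.15, 0.30 and 0.31 in FNV, FKN, FBR and FTV, with a mean of 0.12 ± 0.27 (SD, n = 4) and an adjusted p of 0.427. FNV was the only animal below 0, and without it the mean was 0.25 with an adjusted p of 0.0261. All 4 EIF4A2 probes were negative in FNV, from -0.57 to -0.14, and positive in the other 3 animals, and its unstimulated level was 15.67 in FNV beside 13.95 to 14.31 in the others. EIF4A1 thus responded more than EIF4A2 in every animal. EIF4A3, the helicase of the exon junction complex, rose by 0.71 ± 0.18 (SD, n = 4; adjusted p = 0.00276).

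EIF4G1, the scaffold that bridges the cap and the ribosome, rose by 0.90 ± 0.30 (SD, n = 4; adjusted p = 0.0043), with ratios of 1.23 in FNV, 0.66 in FKN, 0.63 in FBR and 1.08 in FTV. The median gap between the dye orientations of an animal was 0.60 for EIF4G1, beside 0.12 over all features. The gene has 3 probes that share no stretch of 12 or more bases, and they differ in FNV. The probe used lies at chr2:102339736-102339795 (rheMac2, minus strand), and the others at chr2:102335301-102336166 and chr2:102344082-102344971. They start at bases 2715, 4011 and 599 of the transcript and are shown to make plain that they read separate parts of 1 gene; each has a reading frame without a stop.
EIF4G1 at base 2715: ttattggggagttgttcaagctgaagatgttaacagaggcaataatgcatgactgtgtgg
EIF4G1 at base 4011: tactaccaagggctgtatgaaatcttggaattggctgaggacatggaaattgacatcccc
EIF4G1 at base 599: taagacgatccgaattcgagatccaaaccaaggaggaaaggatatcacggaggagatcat
The probe at base 4011 gave 0.07 in FNV, 0.85 in FKN, 0.92 in FBR and 1.27 in FTV (mean 0.78, adjusted p = 0.0288), and the probe at base 599 gave 0.08, 0.38, 0.36 and 0.54 (mean 0.34, adjusted p = 0.0301). The probe at base 599 was well above background in 3 animals; its level in FNV was 6.42 unstimulated and 6.43 stimulated, so its 0.08 there is a ratio of 2 background signals. In FKN, FBR and FTV all 3 probes were above 0.3, and in FNV the probes at bases 2715 and 4011, both detected there, gave 1.23 and 0.07. The unstimulated level of the probe at base 2715 was also lower in FNV, 9.04 beside 10.97 to 11.48.

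**Figure D2:**
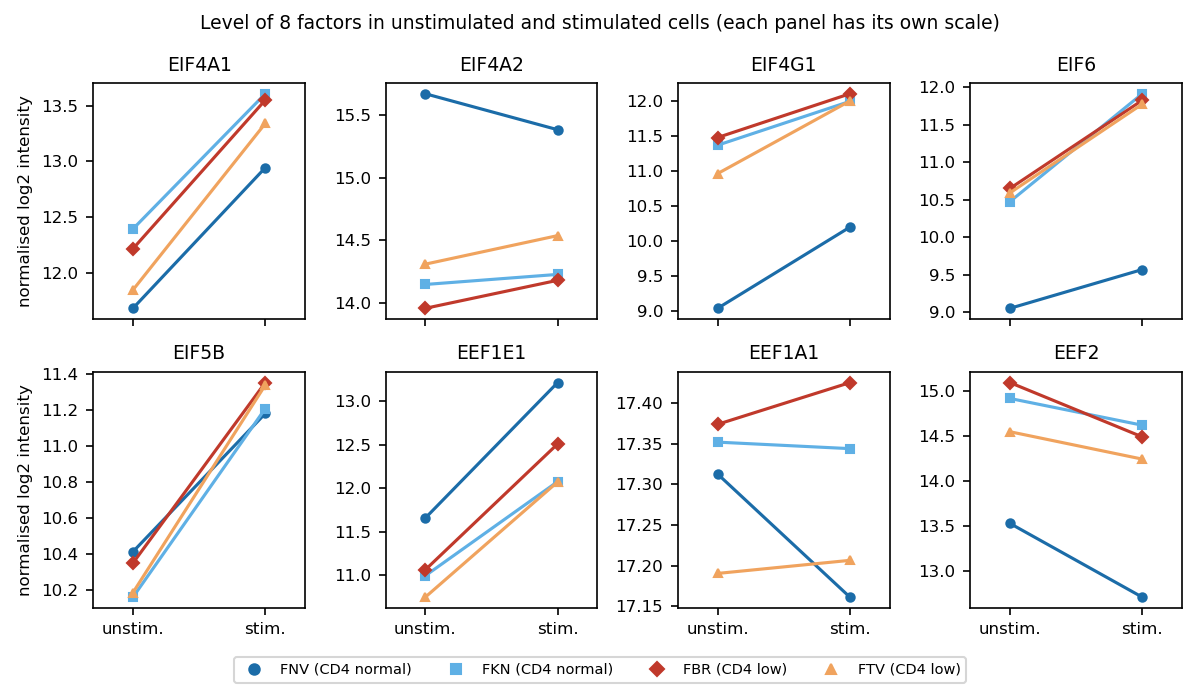
Normalised log2 intensity (y axis, a separate scale for each panel) of 8 factor genes in unstimulated and stimulated cells, with 1 line per animal. The lines of EIF4A1, EIF4G1, EIF6, EIF5B and EEF1E1 rise in all 4 animals, those of EEF2 fall in all 4, and EIF4A2 falls in FNV only.

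The other eIF4 genes moved less. EIF4G2, an eIF4G relative that does not bind eIF4E, rose by 0.36 ± 0.18 (SD, n = 4; adjusted p = 0.0239), and EIF4H, which stimulates the helicase, rose by 0.28 ± 0.12 (adjusted p = 0.0239). Both calls ended with an animal left out: without FKN the adjusted p was 0.0953 for EIF4G2 and 0.101 for EIF4H, without FTV it was 0.0582 and 0.085, and without FBR it was 0.0781 for EIF4G2. EIF4B, a second helicase helper, fell by 0.25 (adjusted p = 0.0167) on its brightest probe, and its other 3 probes read -0.12, -0.07 and -0.07 and did not pass. Without FKN, FBR or FTV the adjusted p of EIF4B was 0.0739, 0.0813 and 0.0683. EIF4E3, a cap-binding relative of eIF4E, had the lowest value of the group, with -0.54 in FNV, -0.58 in FKN, -0.75 in FBR and -0.26 in FTV, a mean of -0.53 ± 0.21 (SD, n = 4) and an adjusted p of 0.00903. It was lower in every stimulated sample. EIF4E2, which binds the cap but represses translation, read 0.15 ± 0.10 and did not pass (adjusted p = 0.104). In all, 5 of the 9 genes of this group rose, 2 fell and 2 did not pass, with a group median of 0.28.

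None of the 3 member genes that encode eIF4E-binding proteins rose. Outside the set, the 2 probes for a transcript like EIF4EBP2 did rise, by 0.47 and 0.47. EIF4EBP1, the inhibitor best known as a target of mTOR, read -0.71 in FNV, 0.23 in FKN, 0.00 in FBR and -0.76 in FTV. The animals therefore split, FNV and FTV low and the other pair at or above 0, and the mean of -0.31 ± 0.50 (SD, n = 4) did not pass (adjusted p = 0.251). EIF4EBP3, a family member, fell by 0.26 ± 0.16 (SD, n = 4; adjusted p = 0.0462), a call that was lost with any 1 animal left out: the adjusted p was 0.053 without FNV, 0.172 without FKN, 0.0614 without FBR and 0.148 without FTV. EIF4ENIF1, which carries eIF4E into the nucleus, read 0.22, 0.14, 0.10 and 0.27 in FNV, FKN, FBR and FTV, positive in every animal, with an adjusted p of 0.0516; its other probe read 0.08.

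Of the genes for eIF2 and for factors that bring tRNA to the ribosome, 3 of 4 rose and 1 fell. EIF2S2, the beta subunit of eIF2, had ratios of 1.01 in FNV, 1.40 in FKN, 0.98 in FBR and 1.40 in FTV. All 4 animals were near a doubling or above it, and the mean was 1.20 ± 0.23 (SD, n = 4), a 2.29-fold rise (adjusted p = 0.0011). Another probe of that name on chromosome 7 read 1.12, and one on chromosome 1 was well above background in 0 animals. EIF2S1, the alpha subunit that the stress kinases phosphorylate, read 0.56, 0.41, 0.37 and 0.58, a smaller rise of 0.48 ± 0.10 (SD, n = 4; adjusted p = 0.0036), and its second probe read 0.36. EIF2A, a separate protein that can deliver initiator tRNA without eIF2, rose by 0.30 ± 0.10 (adjusted p = 0.0148; 0.0689 without FKN and 0.0772 without FBR). EIF2D, which acts in non-canonical initiation and in recycling, went the other way, with -0.62 in FNV, -0.76 in FKN, -0.77 in FBR and -0.54 in FTV. Its mean was -0.67 ± 0.11 (SD, n = 4; adjusted p = 0.00149), it was lower in 4 of 4 animals, and its other 2 probes fell by 0.37 and 0.38.

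Of the 4 genes for the exchange factor eIF2B 1 rose and 3 did not pass. EIF2B2, the beta subunit, was the one that rose, with 0.21 in FNV, 0.58 in FKN, 0.50 in FBR and 0.57 in FTV (mean 0.46 ± 0.17, SD, n = 4; adjusted p = 0.0097), and its second probe read 0.49. That call too was at the edge without FKN (adjusted p = 0.0534) or FBR (0.0532). EIF2B5, the catalytic epsilon subunit, read 0.05, 0.15, 0.23 and 0.13, positive in 4 of 4 animals but with a mean of 0.14 and an adjusted p of 0.0981; its dimmer probe read 0.31 and passed (adjusted p = 0.0227). EIF2B1, the alpha subunit, read 0.18 with an adjusted p of 0.0539. EIF2B3, the gamma subunit, read -0.30 in FNV, 0.12 in FKN, 0.12 in FBR and -0.13 in FTV, on both sides of 0, and did not pass (adjusted p = 0.704).

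The 2 eIF2 kinases in the set moved in opposite directions. EIF2AK1, the kinase that responds to heme shortage, read 0.30 in FNV, 0.30 in FKN, 0.21 in FBR and 0.50 in FTV and rose by 0.33 ± 0.12 (SD, n = 4; adjusted p = 0.0155, and 0.0686 without FKN). EIF2AK3, the kinase of endoplasmic reticulum stress, read -0.87 in FNV, -0.40 in FKN, -0.41 in FBR and -0.13 in FTV and fell by 0.45 ± 0.31 (adjusted p = 0.039). FNV was lowest, and the adjusted p was 0.117 without FKN or without FBR. The size also moved with the dye: it was -0.17 on the arrays with stimulated RNA in Cy5 and -0.73 on those with stimulated RNA in Cy3. EIF2C4, an Argonaute gene (AGO4) that carries a factor-like name although Argonautes silence mRNA with small RNAs, had the largest fall of all members. Its ratios were -1.63 in FNV, -1.75 in FKN, -1.54 in FBR and -1.36 in FTV, a 2.97-fold drop (mean -1.57 ± 0.17, SD, n = 4; adjusted p = 0.000556). A probe outside the set described as the same gene fell by 0.61 (adjusted p = 0.022), with -0.09 in FNV and -0.84 to -0.69 in the other 3 animals, so the probes differ in size. The signal of that second probe was low in FNV, 6.66 unstimulated and 6.95 stimulated, which limits its ratio there. Its unstimulated level was 7.70 to 7.82 in the others.

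The 11 eIF3 subunit genes did not move as 1 block: 5 rose, 1 fell and 5 did not pass, and the median was 0.14. EIF3A and EIF3B, the large subunits around which the complex is built, led. EIF3A read 1.00 in FNV, 0.62 in FKN, 0.76 in FBR and 0.91 in FTV, a mean of 0.82 ± 0.17 (SD, n = 4, adjusted p = 0.00155). Its median gap between the dye orientations of an animal was 0.59, beside 0.12 over all features, so the size moved with the dye. EIF3B read 0.53, 0.93, 0.99 and 1.24, with FNV lowest, and a mean of 0.92 ± 0.29 (adjusted p = 0.00366). EIF3D, the subunit that can itself bind the cap of some mRNAs, rose by 0.60 ± 0.09 (adjusted p = 0.00155), EIF3I by 0.53 ± 0.12 (adjusted p = 0.00342) and EIF3M by 0.38 ± 0.13 (adjusted p = 0.00977, and 0.0509 without FKN).

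EIF3F, which like EIF3H belongs to the family of MPN-domain subunits, was the subunit that fell, with -0.25 in FNV, -0.30 in FKN, -0.34 in FBR and -0.50 in FTV (mean -0.35 ± 0.11, SD, n = 4; adjusted p = 0.0108, 0.0509 without FKN and 0.0561 without FBR). EIF3E read 0.14, EIF3K 0.05, EIF3L -0.16 and EIF3H -0.16, and none of the 4 passed (adjusted p = 0.108, 0.634, 0.0714 and 0.0668). For EIF3L the adjusted p was 0.0483 without FNV. EIF3G read -0.61 in FNV and -0.12 to 0.01 in the other 3 animals, and did not pass (adjusted p = 0.2). Grouped by place in the complex, a grouping made after the values were seen, the core subunits EIF3A, EIF3B, EIF3G and EIF3I had a median of 0.67, with 3 of 4 risen. The other subunits of the octamer that EIF3A and EIF3C anchor (EIF3E, EIF3F, EIF3H, EIF3K, EIF3L and EIF3M) had a median of -0.06, with 1 of 6 risen and 1 of 6 fallen. These medians are a description of the values that made the grouping, with no test.

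**Figure D3:**
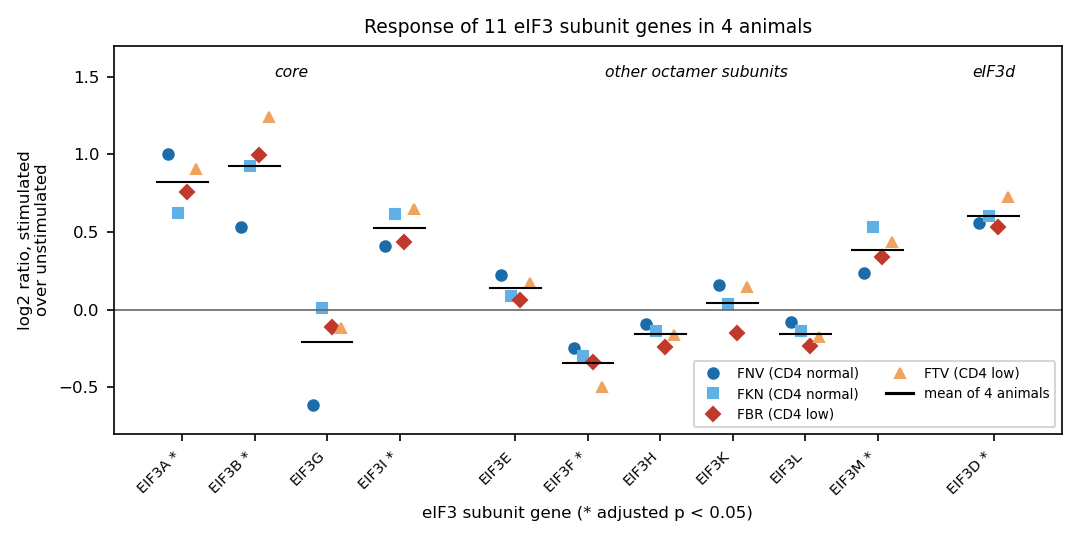
Log2 ratio of stimulated over unstimulated RNA (y axis) for the 11 eIF3 subunit genes, with 1 point per animal, a bar at the mean and an asterisk where the adjusted p was under 0.05. EIF3A, EIF3B, EIF3I, EIF3M and EIF3D lie above 0 in all 4 animals and EIF3F below 0 in all 4; EIF3G is low in FNV only.

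The 2 EIF3B probes are largely the same measurement. They share 45 bases, printed in lower case, and the capitals mark where they part. The first spans chr3:40333181-40333636 (rheMac2, plus strand), 456 bases of genome for 60 of probe, so it crosses an exon junction; the second lies unbroken at chr3:40333177-40333236 and runs on in the genome where the first breaks.
EIF3B across the junction: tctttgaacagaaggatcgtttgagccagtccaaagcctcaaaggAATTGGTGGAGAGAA
EIF3B unbroken: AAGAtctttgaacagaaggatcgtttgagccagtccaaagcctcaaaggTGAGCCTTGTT
Both gave a mean of 0.92, and in each animal they differed by less than the spread between animals: 0.53 and 0.55 in FNV, 0.93 and 0.92 in FKN, 0.99 and 0.95 in FBR, and 1.24 and 1.24 in FTV. With 45 bases in common they are not separate evidence.

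All 5 genes grouped by name under scanning and subunit joining rose, beside 19.0% of all features. For EIF1AY this rests on 3 animals with signal. EIF6, which keeps the large ribosomal subunit from joining too early and is needed to make that subunit, read 0.65 in FNV, 1.42 in FKN, 1.23 in FBR and 1.22 in FTV. FNV was lowest, and the mean was 1.13 ± 0.33 (SD, n = 4), a 2.19-fold rise (adjusted p = 0.00273). Its level in FNV was also apart, 9.05 unstimulated and 9.57 stimulated, beside 10.48 to 10.65 and 11.78 to 11.91 in the other 3 animals. EIF5B, the GTPase that joins the subunits, read 0.74, 1.00, 1.00 and 1.05 (mean 0.95 ± 0.14, SD, n = 4; adjusted p = 0.000917), a rise of similar size in every animal. EIF1B, a close relative of the start-codon factor eIF1, had the lowest mean of the group, with 0.35, 0.29, 0.25 and 0.51 (mean 0.35 ± 0.11; adjusted p = 0.011), and EIF1AD rose by 0.39 ± 0.13 (adjusted p = 0.00962, and 0.0545 without FKN).

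EIF1AY, by name the Y-encoded form of eIF1A, was well above background in every channel of FNV, FKN and FTV and in none of FBR. Its ratios were 0.85 in FNV, 0.68 in FKN and 0.96 in FTV; the 0.03 of FBR is a ratio of 2 background signals (level 6.39 unstimulated and 6.37 stimulated, beside 10.53 to 12.45 in the others). The fit over 4 animals, FBR included, gave 0.63 ± 0.42 (SD, n = 4; adjusted p = 0.0319), and without FBR the mean was 0.83 (adjusted p = 0.00995). With FBR kept, the adjusted p was 0.0642 without FNV, 0.115 without FKN and 0.107 without FTV. The files place this probe on chromosome 20, so its gene of origin in the mangabey is uncertain. A probe outside the set, placed on chromosome X but described as the Y-chromosomal eIF1A, was detected in all 4 animals and rose by 1.11, with 0.98 in FNV, 1.20 in FKN, 0.86 in FBR and 1.38 in FTV.

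The name EIF6 stands on 4 probes, and 3 of them lie on chromosome 9, 2 of these described in the files as EIF3A and the other, without a description, beside them. The 1 probe on chromosome 10 is the EIF6 of the values above. The probes are shown because the name alone would have made 1 gene of 2; the first is EIF6 at chr10:29263340-29263518 (rheMac2, plus strand), and the next 2 carry the EIF6 name at chr9:118649715-118649774 and chr9:118658679-118664649 (minus strand).
EIF6 on chromosome 10: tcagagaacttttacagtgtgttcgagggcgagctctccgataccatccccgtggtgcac
Named EIF6, kept as EIF3A, at base 3636: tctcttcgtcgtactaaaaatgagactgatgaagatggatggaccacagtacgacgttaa
Named EIF6, kept as EIF3A, at base 222: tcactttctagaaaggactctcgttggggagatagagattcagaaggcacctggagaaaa
The 3 chromosome 9 probes lay close together, with means of 0.82, 0.77 and 0.75, and the chromosome 10 probe read 1.13. With all 4 kept as 1 gene, as the name has it, the brightest probe gave 0.82 for EIF6 and 21 of 44 genes rose.

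The elongation factors split by subunit. EEF1A1, the main tRNA carrier and among the most abundant proteins of the cell, read -0.11 in FNV, 0.02 in FKN, 0.07 in FBR and 0.02 in FTV, a mean of 0.00 ± 0.08 (SD, n = 4; adjusted p = 0.993). Its 3 further probes read -0.01, 0.01 and 0.01. On the brightest probe the dye orientations had opposite sign, 0.31 with stimulated RNA in Cy5 (adjusted p = 0.0143) and -0.30 with it in Cy3 (adjusted p = 0.0137). The median gap between the orientations of an animal was 0.61 on that probe. On the further probes, which also read near 0, it was 0.12, 0.13 and 0.22. EEF1G, the gamma subunit of the exchange complex, read -0.02, -0.14, -0.14 and -0.15 (mean -0.11; adjusted p = 0.148), and its other probes read -0.13 and -0.14. EEF1B2, the exchange subunit that recharges eEF1A, rose by 0.49 ± 0.11 (SD, n = 4; adjusted p = 0.00353).

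EEF1E1 rose most of all 45 genes. It encodes a small scaffold protein, also called AIMP3 or p18, of the complex that holds several aminoacyl-tRNA synthetases together. It read 1.66 in FNV, 1.23 in FKN, 1.51 in FBR and 1.45 in FTV, all 4 above a doubling, for a mean of 1.46 ± 0.18 (SD, n = 4), 2.75-fold (adjusted p = 0.000623). EEF2, the translocation factor, and EEF2K, the kinase that inhibits it, both fell. EEF2 read -0.69 in FNV, -0.28 in FKN, -0.54 in FBR and -0.21 in FTV (mean -0.43 ± 0.23; adjusted p = 0.0213), and without FKN or FBR the adjusted p was 0.0568 and 0.0951. EEF2K read -0.89, -0.37, -0.38 and -0.64 (mean -0.57 ± 0.25; adjusted p = 0.011). FNV was lowest for both, and neither gene was higher in any animal. With stimulated RNA in Cy3 alone, EEF2 did not pass (adjusted p = 0.173).

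For 21 of the genes more than 1 probe passed the filter, which gave 31 further probes. The median gap between a further probe and the brightest one was 0.03 (log2), and no 2 probes of a gene were called in opposite directions. In 4 cases the call differed: 3 EIF4B probes, with adjusted p of 0.158, 0.329 and 0.336, did not pass where the brightest did, and 1 EIF2B5 probe passed where the brightest did not. The largest gap was 0.56, in EIF4G1, for the probe at base 599 that is at background in FNV. EIF3M, EIF3K, EIF2B2, EIF3D, EIF2D and EIF3B each have a further probe that shares at least 20 bases with the first, so those 6 pairs are not separate evidence. The further probes of EIF1B, EIF3E, EIF3D, EIF3K, EIF3M, EIF4G2 and EIF4E2 read 0.36, 0.12, 0.62, 0.07, 0.35, 0.33 and 0.19, and that of EIF2B3 read -0.02; 1 probe each of EIF2B3 and EIF3L did not pass the filter.

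**Figure D4:**
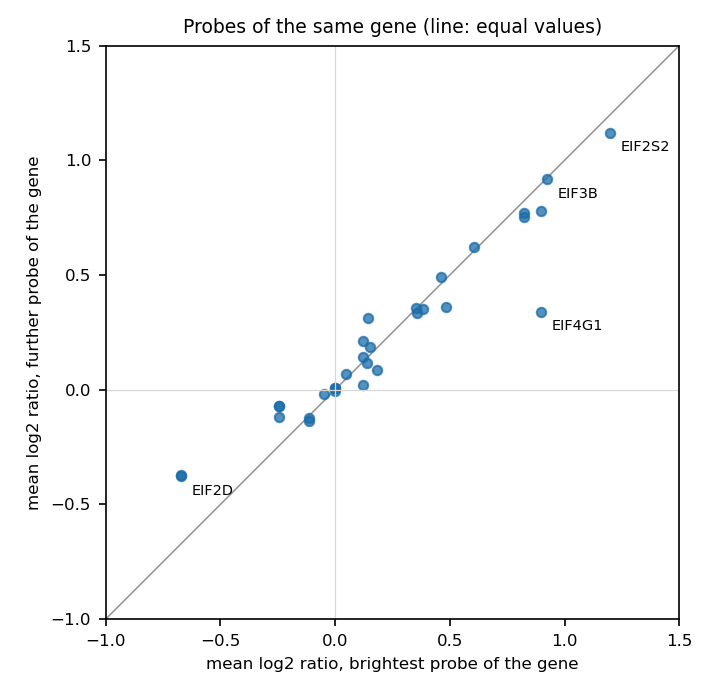
Mean log2 ratio over 4 animals of each of the 31 further probes (y axis) against that of the brightest probe of the same gene (x axis), for 21 genes, with the line of equal values. Most points lie on or near the line, and the EIF4G1 probe at base 599 lies 0.56 below it.

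Some factors stand on the array without a name of this form, among them the cap-binding protein eIF4E itself. By their descriptions or an older annotation, 46 more probes carry a factor name of this kind, and 41 passed the filter. Argonaute probes described as EIF2C1, EIF2C3 and EIF2C4 are counted among them. The probes were found after the names had been seen and are no members. Of these 18 rose (43.9%), 5 fell (12.2%) and 18 did not pass (every probe tested). In the main test 19.0% of all features rose and 21.0% fell. Probes that overlap on the genome are counted separately here. The probe described as like EIF4E read 0.59 in FNV, 1.04 in FKN, 0.98 in FBR and 1.05 in FTV (mean 0.92; adjusted p = 0.00193), higher in 4 of 4 animals. Probes described as like EIF1 read 1.18 and 1.17, like EIF3C 0.97, like EIF3J 0.93 and 0.95, like EIF5 0.61 and 0.61, and like EIF4G3 0.69, and all of these rose. The EIF3J pair overlaps on the genome, so it is not separate evidence. The probe described as like EIF3L fell by 0.30 (adjusted p = 0.00819) and that like EIF4B by 0.34 (adjusted p = 0.0107). Further probes described as EIF4B read -0.07 and 0.02 and did not pass. The probe described as like EIF5A-2 read 0.28 and did not pass (adjusted p = 0.0678). The 2 probes for a transcript like the binding protein EIF4EBP2 rose by 0.47 and 0.47, and they too overlap on the genome. EIF2AK4, the kinase that senses uncharged tRNA, fell by 0.51. For EIF2S3, the gamma subunit of eIF2, the probes read -0.16 (not passed) and -0.19 (adjusted p = 0.0485, fell), and a like transcript on chromosome 4 read 0.28 and did not pass. EIF2B4, named only by the older annotation, has probes at 0.28, 0.26 and 0.32, of which the first passed (adjusted p = 0.0138).

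Genes that work with these factors were followed in 7 lists, of which 58 of 74 genes were tested: 25 rose, 10 fell and 23 did not pass, with a median of 0.16. In termination and recycling 4 of 6 rose and none fell. ABCE1, which splits the ribosome after termination, rose by 1.15 ± 0.23 (SD, n = 4) and PELO, which rescues stalled ribosomes, by 1.15 ± 0.34, while HBS1L (0.07) and N6AMT1 (0.01) were lowest and did not pass. In the list for hypusine, the modified residue of eIF5A, its polyamine supply and the diphthamide of eEF2, 7 of 8 rose. SMS, spermine synthase, read 1.49 in FNV, 2.30 in FKN, 1.78 in FBR and 2.79 in FTV, a mean of 2.09 ± 0.57 (SD, n = 4; adjusted p = 0.002), and ODC1, the first enzyme of polyamine synthesis, rose by 1.73 ± 0.45. DPH5 rose by 0.49, and DHPS, which makes the first step of hypusine, was lowest at -0.05 and did not pass. Of the factors of mitochondrial translation 5 of 7 rose and 1 fell: GFM1 (0.53) and TUFM (0.36) were highest, MTRF1L (0.12) did not pass and MTRF1 fell by 0.39.

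Of 12 mTOR and MNK signalling genes none rose, 4 fell and 8 did not pass, with a median of -0.08, beside the 21.0% of all features that fell. MKNK1, a kinase that phosphorylates eIF4E, read -1.14 in FNV, -1.16 in FKN, -0.72 in FBR and -0.93 in FTV (mean -0.99 ± 0.21, SD, n = 4; adjusted p = 0.00138), lower in 4 of 4 animals. SESN1, an inhibitor of mTOR signalling, fell by 0.60; DDIT4 (0.16) and TSC1 (0.16) were highest and did not pass. Of 9 genes for mRNA and poly(A) binding 3 rose and 3 fell. LARP1, which binds mRNAs for the translation machinery, rose by 0.83 and DDX3X, an RNA helicase, by 0.62. PDCD4, which inhibits eIF4A, had the largest fall of these lists, with -2.68 in FNV, -1.37 in FKN, -2.06 in FBR and -1.40 in FTV (mean -1.88 ± 0.62, SD, n = 4; adjusted p = 0.00346). PAIP2, an inhibitor of poly(A)-binding protein, read -0.39 and did not pass.

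In the list for the eIF2 phosphatase and the stress arm 4 of 11 genes rose and 2 fell. TRIB3 rose by 0.73 ± 0.55 and PPP1R15B, a subunit of the eIF2 phosphatase, by 0.55 ± 0.06 (SD, n = 4). DDIT3 fell by 0.51 ± 0.21 and PPP1CA, a catalytic subunit of the phosphatase, by 0.51 ± 0.08. The catalytic subunit genes PPP1CB (0.23) and PPP1CC (0.15) did not pass. Among selenocysteine and other factors 2 of 5 rose, GCN1L1 by 0.54 and SECISBP2 by 0.28, and EEFSEC (-0.03) and TPT1 (-0.09) were lowest and did not pass. Of the 7 lists, 6 thus held genes that rose, and their shares can be read against the 19.0% of all features that rose.

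CD4 status was compared as low (FBR and FTV) minus normal (FNV and FKN), which asks whether the factors differ between animals with these labels. No feature was called for the response, the unstimulated level or the stimulated level (limma; 0% called in each), and 0 of the 45 members had an unadjusted p under 0.05 in any of them, beside 490, 385 and 500 of the 22846 features. For the response the largest differences were in EIF3B, with means of 1.12 (low) and 0.73 (normal), a difference of 0.39 (adjusted p = 1.00), in EIF2AK3, with -0.27 and -0.64, and in EIF4A2, with 0.30 and -0.06.

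For the unstimulated level the largest differences were in EIF1AY (8.46 low, 11.38 normal), which follows the absent signal in FBR, in EIF2AK3 (9.25 low, 10.41 normal) and in EIF4G1 (11.23 low, 10.21 normal). For the stimulated level they were in EIF1AY (8.89 and 12.07), EIF6 (11.80 and 10.74) and EIF4G1 (12.06 and 11.10). FNV, from the earlier scan batch, lay far from the other 3 animals in EIF2AK3, EIF4G1 and EIF6. FKN, also normal but of the later batch, lay near the low animals: its unstimulated EIF2AK3 level was 9.47 beside 9.32 and 9.19, its unstimulated EIF4G1 level 11.37 beside 11.48 and 10.97, and its stimulated EIF6 level 11.91 beside 11.83 and 11.78. The differences in these 3 genes thus rest largely on FNV, whose batch and animal cannot be told apart. Without FKN, which leaves FNV as the only normal animal, 7 members and 2893 features were called for the stimulated level, the lone animal being assumed to vary like the others; without any other animal 0 members were called. With 2 animals a group, the spread between animals limits what could be detected.

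In the authors' deposited table of log2 ratios per animal, 39 of the 45 genes have a value in all 4 animals. The authors' deposited table gives EIF4A1 a mean of 1.27, EEF1E1 1.46, EIF6 1.18, EIF2C4 -1.78 and EEF1A1 -0.02. Of the genes called here, only EIF2AK1 was over 1.5 times apart, 0.60 in the authors' deposited table against 0.33 here.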

How the data were processed

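The authors deposited, for each of 16 two-colour Agilent arrays, spot and background intensity on a linear scale; per the file headers the scanner software was Agilent's Feature Extraction, version 10.7.3.1. These files also hold a deposited log10 ratio of red over green from that software. The authors also deposited a table of log2 ratios per animal; limma and Agilent Feature Extraction stand in the submitters' processing notes with no role. Here limma 3.58.1 in R 4.3.3 applied normexp (offset 50) and loess; outlier spots, 51 or fewer per array, were left out, and none was saturated. Both ratio arrays of an animal were averaged with signs turned. On 1 FNV array a title and a characteristic disagree on the dyes; the title was followed. A probe counted as detected in an animal when well above background on both ratio arrays in 1 condition. Levels used Aquantile normalisation. Tests were lmFit and eBayes at an adjusted p of 0.05, checked on simulated data. Depth does not apply to arrays; their number limits precision. Values for each animal are given for the highest and lowest mean in each factor group and for factors with a defining role; each other list gives its 2 highest and 2 lowest genes. The members and lists were chosen with earlier results of these data known. The newer of 2 annotation editions was used, on rheMac2. Figures used Python 3.11.15 and matplotlib 3.10.9. Stimulated and unstimulated samples of an animal are paired by their labels. Across features their deviations from the mean of the 4 animals correlated at 0.73 to 0.76 in the self-self arrays. Both such arrays of an animal share its scan batch, and no correlation between different animals was computed. These values therefore do not show the pairing.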

Additional observations from a re-analysis of the deposited data

Results flagged for a closer look

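In 11 of 135 sets of 4 animal values (responses and both levels of the 45 genes) 1 animal lay far from the others by Dixon's gap, and it was FNV each time; chance flags about 1 in 20 such sets, and the sets share arrays, so they are not independent. FNV was scanned in the earlier batch, and the part of that batch was not tested. Its EIF6 level was 9.05 unstimulated and 9.57 stimulated, beside 10.48 to 10.65 and 11.78 to 11.91 in the others. Its EIF2AK3 level was 11.34 unstimulated and 10.43 stimulated, higher than the 9.19 to 9.47 and 8.94 to 9.16 of the others. Its stimulated level of EIF3B was 9.15 (others 10.96 to 11.20), of EIF4G1 10.20 (FTV 12.01 and FBR 12.11, with FKN beside them) and of EIF3G 11.27 (others 12.21 to 12.36). Its unstimulated level of EIF3F was 13.68 (others 14.77 to 14.90), of EIF4E3 8.11 (others 9.11 to 9.30) and of EIF2B1 8.51 (others 9.34 to 9.49). The only response among them was that of EEF1G, -0.021 in FNV and -0.15 to -0.14 in the others.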

How the results depend on the processing

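Of the 31 calls, 18 held with each animal left out in turn, and 6 held under all planned settings run for them (EEF1E1, EIF2C4, EIF4A1, EIF4A3 and EIF5B, and EIF2D, which has no complete value in the authors' deposited table); no called gene changed sign. The count of 31 was 10 with median centring and 7 on the self-self arrays without the replicate block, where the counts over all features were 4089 and 1961 in place of 9138; with the replicate block, the self-self arrays gave 23 calls (14 rose, 9 fell) and 6895 over all features. Leaving out 1 animal gave 18 to 31 calls among the members and 4908 to 11500 over all features. Adding the probes described as a factor, a choice made after seeing the data, gave 54 calls among 86. For CD4 status the stimulated level gave 0 to 7 members with 1 animal left out. The causes of these changes were not tested. Further settings gave 22 to 46 calls. They were the scanner software's ratio, either dye alone, other filters, every probe, the scan batch as a term and the authors' deposited table. The 46 calls were among 76 probes, with every probe tested. The 22 were among the 39 genes complete in the authors' deposited table. The median response lay between 0.18 and 0.26 under every planned setting. The replicate block pairs samples of an animal. With 4 animals, responses below the spread between them (a median SD of 0.16 over all features) were rarely called, and low signals in some FNV channels limit its ratios.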
